A study of Bos taurus with 8 samples.

Results

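The genes described here encode the SLC25 family of mitochondrial carriers and, apart from them, the TIMM and TOMM proteins of the mitochondrial import machinery. Members were the probes whose platform annotation symbol was SLC25A with a number, TIMM with a number and any closing letters, or TOMM with a number and any closing L. This rule took 96 of the 43794 probes of the array, and 57 of the 15211 genes with a symbol on it. The carriers were 37 genes on 65 probes, and the import proteins were 20 genes on 31 probes.

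The samples were bovine (Bos taurus) 2-cell embryos produced in vitro. Oocytes from ovaries of slaughtered Holstein cows were matured and fertilized in culture with semen mixed from several bulls, and both groups shared this background. One group was collected at 29.5 hours post-fertilization (hpf) and is called fast in the series' design; the other was collected at 46 hpf and is called slow. The 2 groups thus differed in the time of collection as well as in the speed of the first cleavage, and these cannot be told apart. The question was how the messenger RNA of embryos that cleave early differs from that of embryos that cleave late.

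RNA of both groups was amplified and hybridised together on 8 2-colour oligonucleotide arrays, as 4 labelled biological replicates with exchanged dyes. Each value below is a log2 ratio with 29.5 hpf as numerator and 46 hpf as denominator, positive where the level was higher at 29.5 hpf. It is the mean of 4 replicates with its SD, and each replicate value is the average of its dye-swapped arrays. A ratio within an array does not separate fewer cells of a type from less RNA per cell. The sources used here do not give how many embryos made up a sample, and p-values measure the spread between these labelled replicates.

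Carriers of the SLC25 family sit mostly in the inner mitochondrial membrane and exchange nucleotides, phosphate, carboxylates, amino acids and cofactors between the cytosol and the matrix. They are made in the cytosol, enter through the TOM complex of the outer membrane, are escorted by small TIM chaperones and are inserted by the TIM22 complex. Proteins of the matrix take another route, through the TIM23 complex and its motor. An early embryo lives on mitochondria and on messages stored by the oocyte until its own genome becomes active, which in cattle happens after the 2-cell stage.

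The numbering of the replicates touches every test below. The arrays numbered 1 in both dye orientations correlated at r = 0.038 over all tested probes, and those numbered 2 at r = 0.049. Array 1 of one orientation correlated with array 2 of the other at r = 0.669 and in the opposite combination at r = 0.522, while numbers 3 and 4 correlated within themselves at r = 0.618 and r = 0.717. The labelled numbers were kept for the main values, and the test with numbers 1 and 2 exchanged is given beside them as the exchanged numbering. Exchanging them changes the spread and so the p-value, and leaves the mean as it is where no spot is missing. Among the tested member probes the mean moved on 1, the dimmer SLC25A1 probe, from -0.00024 to 0.024.

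The embryos carried oocyte messages at both times. All 16 oocyte and cleavage-embryo markers were tested and lay above background on all 8 arrays in both groups. One of them, NLRP2, an oocyte protein of the NLRP family, was called higher at 29.5 hpf at 0.61 ± 0.05 (SD, n = 4; limma, adjusted p = 0.0335, exchanged numbering 0.124). In the labelled numbering 3 others had a negative ratio at an unadjusted p under 0.05, and in the exchanged numbering 0 did. Of 24 cumulus and granulosa cell markers on the array, 18 were tested, and their summed level ran from 35606 to 46921 intensity units at 29.5 hpf and from 34512 to 39000 at 46 hpf. Of the 18, 8 had a ratio above 0, up to 0.67, and 10 below, with 1 positive and 3 negative at an unadjusted p under 0.05 (1 and 2 in the exchanged numbering). Of these SERPINE2, a secreted protease inhibitor, was called lower at 29.5 hpf, at -1.28 ± 0.10 (SD, n = 4; limma, adjusted p = 0.0227, exchanged numbering 0.0640). Of 12 sperm markers 5 were tested and 0 called by limma, with 1 at an unadjusted p under 0.05 in either numbering. Over all genes limma called 1.47% in the labelled and 0.0158% in the exchanged numbering. At an unadjusted p under 0.05 in the labelled numbering, 9.18% of all genes were positive and 10.1% negative. The part of cumulus cell RNA in the member values was not tested.

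No carrier and no import protein passed the test, in the labelled or in the exchanged numbering. Over the whole array limma called 186 of 12628 genes by their brightest tested probe at an adjusted p under 0.05, or 1.47%, of which 113 (0.895%) were higher at 29.5 hpf and 73 (0.578%) lower. In the exchanged numbering 2 genes were called, or 0.0158%. Against this background limma called 0 of the 35 tested carriers and 0 of the 20 tested import proteins in either numbering, and none of their 91 tested probes, beside 1.15% of all tested probes in the labelled and 0.0121% in the exchanged numbering. At an unadjusted p under 0.05 there were 8 carriers, 3 with a positive and 5 with a negative ratio, and 2 import proteins, both negative. These were 22.9% of the carriers and 10.0% of the import proteins, beside 19.3% of all genes (9.18% positive and 10.1% negative). In the exchanged numbering the counts were 2 carriers with a positive and 4 with a negative ratio and 2 negative import proteins, beside 14.4% of all genes (7.15% positive and 7.25% negative).

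The members nearest to a call passed when the arrays were fitted singly. With all 8 arrays in the fit and the labelled number as a random block, limma called 766 genes, or 6.07%. Among them were the carriers SLC25A33 (adjusted p = 0.0265), SLC25A36 (0.0434) and SLC25A14 (0.0484) and the import protein TIMM23 (0.0201). The estimated correlation within a number was 0.134 there, so arrays counted nearly as separate samples. With the exchanged numbers as the block and a dye term the correlation was 0.484, limma called 2.95% of genes, and TIMM23 was the only member called (adjusted p = 0.0357).

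The size of the ratios can be bounded. The 95% confidence interval of the mean, without adjustment for many genes, lay within a 2-fold change in either direction for 35 of 35 tested carriers and for 19 of 20 import proteins, beside 96.3% of all genes. The exception was TIMM23. In the exchanged numbering 34 carriers and 19 import proteins were so bounded, beside 95% of all genes, and SLC25A15 joined TIMM23 outside. The median ratio was -0.03 for the carriers, with an SD of 0.05 between the medians of the 4 replicates, and 0.01 for the import proteins, with an SD of 0.12. The median over all genes was -0.0049. The median size of a ratio regardless of its sign was 0.12 in the carriers, 0.13 in the import proteins and 0.11 in all genes. When arrays were centred on their median in place of loess, the median of all genes shifted to -0.10, and the medians of the carriers and of the import proteins were both at -0.14 relative to that shift.

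**Figure D1:**
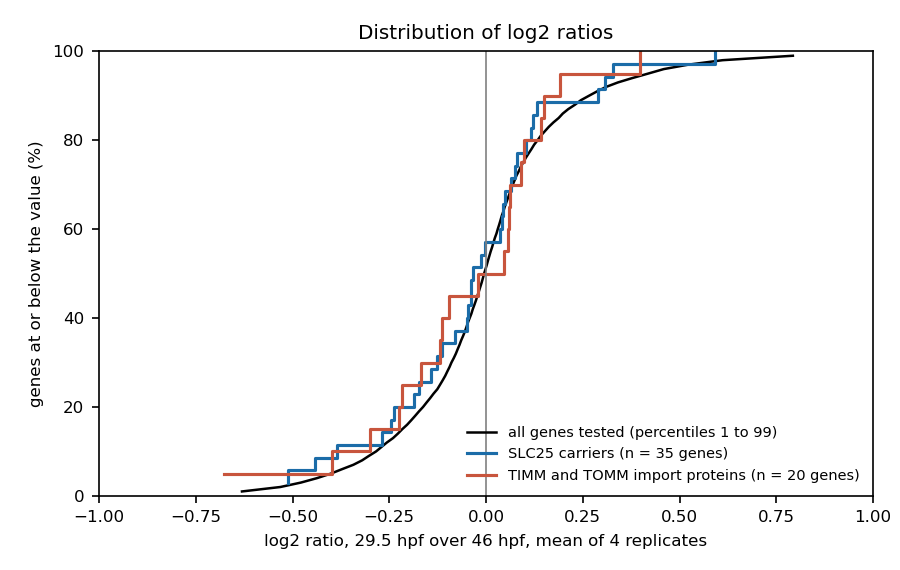
The share of genes (%, vertical axis) at or below each mean log2 ratio of 29.5 hpf over 46 hpf (horizontal axis), for the 35 tested carriers, the 20 tested import proteins and all 12628 genes tested. The 3 lines cross 0 near their middle, with medians of -0.03, 0.01 and -0.0049, and the lowest member is TIMM23 at -0.68.

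Among the carriers of nucleotides and phosphate 11 were tested, with a median ratio of -0.04. SLC25A33, which brings pyrimidine nucleotides into the matrix, had the smallest p of all members. Its replicate values were 0.54, 0.37, 0.96 and 0.49, and its mean was 0.59 ± 0.26 (SD, n = 4), a 1.51-fold higher level at 29.5 hpf. Limma's adjusted p was 0.0782 in the labelled and 0.203 in the exchanged numbering, so the difference did not pass. All 8 arrays lay above 0, from 0.04 to 0.98. Of all genes 7.94% had 1 sign on all 8 arrays, and among the members only SLC25A33 and TIMM23 did. The other SLC25A33 probe gave -0.03 ± 0.20 (SD, n = 4), with 2 replicates below 0 and 2 above, so the means of the probes differ. It was the dimmer probe, at a log2 level of 7.8 in both groups and above background on 7 of 8 arrays at 29.5 hpf. Its ratio is thus less certain. The probes correlated at r = 0.535 over the 8 arrays, which share the same RNA samples.

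SLC25A36, the other pyrimidine nucleotide carrier, had the opposite sign on its single probe. Its replicates were -0.55, -0.44, -0.04 and -0.73, with a mean of -0.44 ± 0.29 (SD, n = 4; limma, adjusted p = 0.160, exchanged 0.289). SLC25A17, a peroxisomal carrier of coenzymes, had -0.16, -0.04, -0.81 and -0.53, with a mean of -0.38 ± 0.35 (SD, n = 4; limma, adjusted p = 0.271). All replicates of both genes were below 0 on these probes, but in each gene at least 1 replicate lay next to it. The dimmer SLC25A17 probe gave -0.06.

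The ADP/ATP carriers export the ATP made by oxidative phosphorylation, and none of them passed. SLC25A5, named here after its values were seen, had replicates of -0.05, -0.12, 0.89 and 0.43 on its brighter probe and 0.14, -0.20, 0.50 and 0.54 on the other. Numbers 3 and 4 were thus higher at 29.5 hpf on both probes, and labelled numbers 1 and 2 lay between -0.20 and 0.14. In the exchanged numbering number 1 was at 0.25 and 0.26 on the 2 probes and number 2 at -0.42 and -0.32. The probe means were 0.29 and 0.25 (adjusted p by limma 0.534 and 0.483). The other 7 carriers of this group, the phosphate carrier SLC25A3, the ADP/ATP carriers SLC25A4, SLC25A6 and SLC25A31 and the ATP-Mg/phosphate carriers SLC25A24, SLC25A25 and SLC25A41, had means between -0.17 and 0.04. SLC25A24 varied least among these over the replicates, from -0.07 to -0.0027, but its single arrays ran from -0.29 to 0.25. Its other tested probes gave -0.31, with all replicates below 0 (limma, adjusted p = 0.217), and -0.18 (adjusted p = 0.368).

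The 3 uncoupling-like carriers all had a mean below 0, beside 51.3% of all genes. SLC25A14, a brain-type relative of the uncoupling proteins also known as UCP5, had replicates of -0.30, -0.34, -0.53 and -0.87 and a mean of -0.51 ± 0.26 (SD, n = 4; limma, adjusted p = 0.103, exchanged 0.297). SLC25A27, known as UCP4, had -0.55, -0.26, -0.02 and -0.25, with a mean of -0.27 ± 0.22 (SD, n = 4; limma, adjusted p = 0.266). SLC25A30 had a mean of -0.19 ± 0.24 (SD, n = 4; limma, adjusted p = 0.483), with replicate 2 at 0.07. The 4 labelled replicates of SLC25A14 and of SLC25A27 shared a sign. In the exchanged numbering number 1 of SLC25A14 was at 0.04, and its single arrays ran from -0.89 to 0.08. None of these 3 genes passed the test.

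Carriers of amino acids and carnitine showed means on both sides of 0. SLC25A15, the ornithine carrier of the urea cycle, had replicates of -0.43, -0.81, -0.75 and -0.05 and a mean of -0.51 ± 0.35 (SD, n = 4; limma, adjusted p = 0.163, exchanged 0.408). Its SD was 0.51 in the exchanged numbering, and its dimmer probe gave 0.12 ± 0.04 (SD, n = 4) with all replicates above 0. The probes of SLC25A15 thus pointed in opposite directions, although they correlated at r = 0.842 over the 8 arrays, which share the same RNA samples. SLC25A12, the aspartate/glutamate carrier of the malate-aspartate shuttle, had 0.25, 0.29, 0.14 and 0.64 and a mean of 0.33 ± 0.22 (SD, n = 4; limma, adjusted p = 0.184). SLC25A20, which carries acylcarnitines for fatty acid oxidation, had 0.15, -0.02, 0.51 and 0.59 and a mean of 0.31 ± 0.29 (SD, n = 4; limma, adjusted p = 0.300). The other 4 tested members, SLC25A13, SLC25A22, SLC25A29 and SLC25A44, lay between -0.08 and 0.12.

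**Figure D2:**
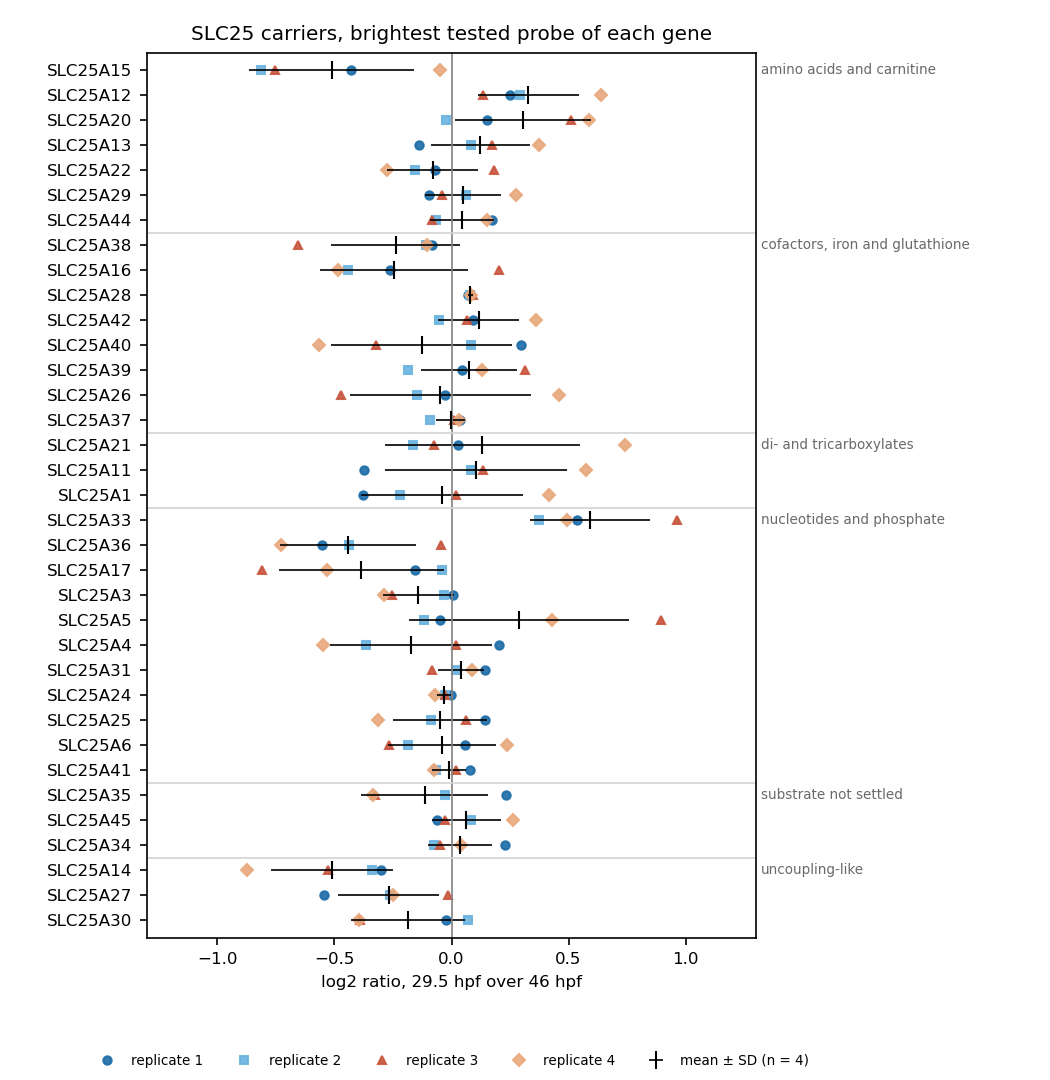
Log2 ratio of 29.5 hpf over 46 hpf (horizontal axis) of the 35 tested SLC25 carriers by their brightest tested probe, grouped by what they carry, with 1 symbol for each of the 4 labelled replicates and the mean ± SD in black. SLC25A33 lies to the right in all replicates (0.37 to 0.96), SLC25A14 and SLC25A36 to the left, and most others spread across 0.

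Carriers of cofactors, iron and glutathione had a median of -0.03 over 8 tested genes, and 0 of them had an unadjusted p under 0.05 by limma. SLC25A38, a glycine carrier that feeds haem synthesis, had replicates of -0.08, -0.11, -0.65 and -0.11, with a mean of -0.24 ± 0.28 (SD, n = 4; limma, adjusted p = 0.403). Replicate 3 lay apart from the others, and on the dimmest of its 3 probes the same replicate was at 0.26. SLC25A16, which has been linked to coenzyme A, had a mean of -0.25 ± 0.31 (SD, n = 4; limma, adjusted p = 0.441), with 3 replicates below 0 and replicate 3 at 0.20. The dimmer SLC25A16 probe gave 0.0047. SLC25A28, the iron carrier mitoferrin 2, had 0.07, 0.08, 0.09 and 0.08. Its mean was 0.08 ± 0.01 (SD, n = 4; limma, adjusted p = 0.571), the smallest spread of any member. That closeness depends on the numbering: its 8 arrays ran from -0.16 to 0.31, and its SD was 0.19 in the exchanged numbering. The glutathione carriers SLC25A39 and SLC25A40 had means of 0.08 and -0.13, the S-adenosylmethionine carrier SLC25A26 -0.05, the coenzyme A carrier SLC25A42 0.12 and mitoferrin 1, SLC25A37, -0.0036.

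Di- and tricarboxylate carriers link the citrate cycle to the cytosol. SLC25A21, which carries oxodicarboxylates, had 0.13 ± 0.41 (SD, n = 4; limma, adjusted p = 0.765). The oxoglutarate/malate carrier SLC25A11 had 0.10 ± 0.39 (SD, n = 4; limma, adjusted p = 0.807), and the citrate carrier SLC25A1 had -0.04 ± 0.35 (SD, n = 4; limma, adjusted p = 0.930). In each of these 3 genes replicate 4 was the highest, at 0.74, 0.57 and 0.42, and the others lay between -0.38 and 0.14. Carriers whose substrate is not settled here were SLC25A35, SLC25A45 and SLC25A34, with means of -0.11, 0.06 and 0.04 (adjusted p by limma from 0.707 to 0.867).

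Dim carriers have less certain values. SLC25A2, an ornithine carrier, was above background on 0 of 8 arrays in either group and was not tested. SLC25A46, an outer membrane protein tied to mitochondrial shape, was above background on 0 arrays at 29.5 hpf and on 3 at 46 hpf and was not tested either. Of the 35 tested carriers 28 were above background on all 8 arrays in both groups. The other 7, SLC25A3, SLC25A21, SLC25A25, SLC25A29, SLC25A34, SLC25A41 and SLC25A42, were above it on 4 to 8 arrays of a group.

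Among the import proteins the TIM23 complex held the member with the largest mean ratio in size. TIMM23 forms, with TIMM17, the channel of the inner membrane for proteins with a presequence. Its replicates were -0.41, -0.42, -1.16 and -0.71, and its mean was -0.68 ± 0.35 (SD, n = 4), a 1.60-fold lower level at 29.5 hpf with a 95% interval from -1.03 to -0.32. Limma's adjusted p was 0.0960 in the labelled and 0.178 in the exchanged numbering, so it did not pass. All 8 arrays lay below 0, from -1.50 to -0.16. Replicate 3 was the only labelled replicate value of any member beyond a 2-fold change by the brightest probe. In the exchanged numbering number 2 of SLC25A15 was beyond it as well, at -1.12. Without replicate 3 the mean of TIMM23 was -0.51. The dimmer TIMM23 probe ran the same way, with -0.04, -0.41, -0.54 and -0.75 and a mean of -0.43 ± 0.30 (SD, n = 4; limma, adjusted p = 0.171).

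**Figure D3:**
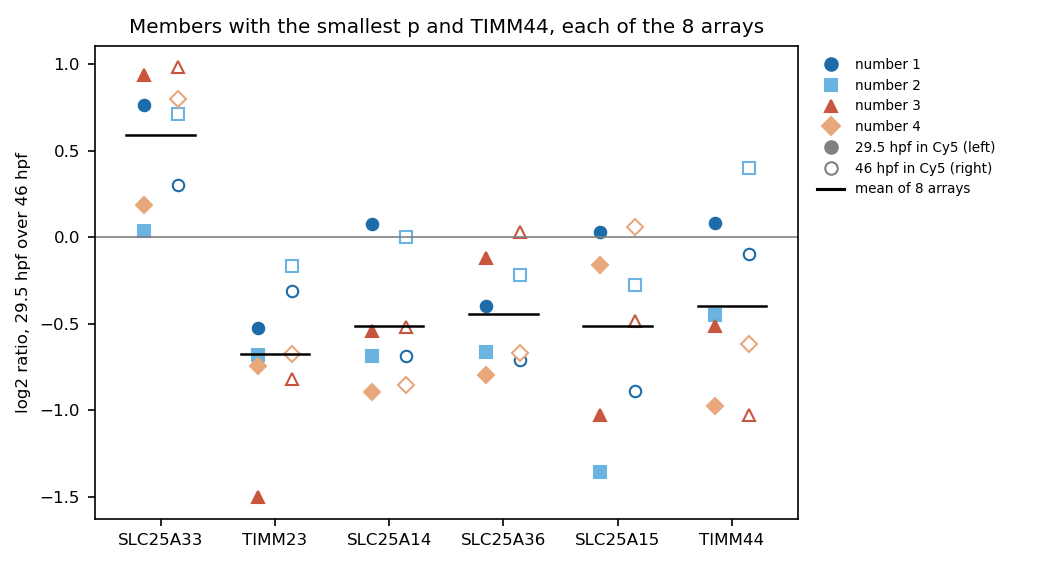
Log2 ratio of 29.5 hpf over 46 hpf (vertical axis) on each of the 8 arrays for the 5 members with the smallest p and for TIMM44; filled symbols are arrays with 29.5 hpf in Cy5, open symbols those with 46 hpf in Cy5, symbol shape is the labelled number and the black line is the mean of 8 arrays. SLC25A33 lies above 0 and TIMM23 below 0 on all arrays, while symbols of number 1 and of number 2 often lie far apart between orientations.

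Dye orientation did not turn the sign of SLC25A33 or TIMM23. SLC25A33 averaged 0.48 where 29.5 hpf was in Cy5 and 0.70 where 46 hpf was, and TIMM23 averaged -0.86 and -0.49. The arrays also carry the opening numbers 140, 141 and 142 in their titles, of which only 140 holds both dye orientations. Within these numbers SLC25A33 averaged 0.37, 0.56 and 0.83, and TIMM23 -0.50, -1.12 and -0.55. Of the 27 members named by rule, 7 had a title number in which the sign of the mean turned (SLC25A1, SLC25A11, SLC25A21, SLC25A30, SLC25A34, TIMM22 and TOMM5). The sign of 1 turned with the dye orientation, SLC25A11, which averaged 0.50 with 29.5 hpf in Cy5 and -0.29 with 46 hpf in Cy5. Of all 55 tested members 31 turned by title number and 16 by dye orientation.

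TIMM44 docks the import motor to the TIM23 channel. Its replicates were -0.0062, -0.02, -0.77 and -0.79, with a mean of -0.40 ± 0.44 (SD, n = 4; limma, adjusted p = 0.345). Numbers 3 and 4 were lower at 29.5 hpf. Numbers 1 and 2 were near 0 in the labelled numbering but at 0.24 and -0.27 in the exchanged one. TIMM17A, named after its values were seen, showed the same division on 5 tested probes in the labelled numbering. Replicate 1 lay between 0.02 and 0.25 over these probes and replicate 2 between 0.04 and 0.54. Replicate 3 lay between -1.02 and -0.35 and replicate 4 between -0.93 and -0.77. In the exchanged numbering number 1 lay between 0.15 and 0.75. Number 2 was there at -0.03, -0.27, -0.38, 0.17 and -0.09, from the brightest probe to the dimmest. The division by sign thus held there only on the probe at 0.17, and depends on the numbering. The probe means ran from -0.41 to -0.22 and the lowest adjusted p by limma was 0.513. Over the 8 arrays the TIMM17A probes correlated at r = 0.643 to 0.961, as a description of probes that share their RNA. The receptor TIMM50 had -0.17 ± 0.19 (SD, n = 4; limma, adjusted p = 0.456), with replicate 1 at 0.12, and its dimmer probe gave 0.03. TIMM17B, an alternative to TIMM17A, had 0.06 ± 0.12 (SD, n = 4).

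**Figure D4:**
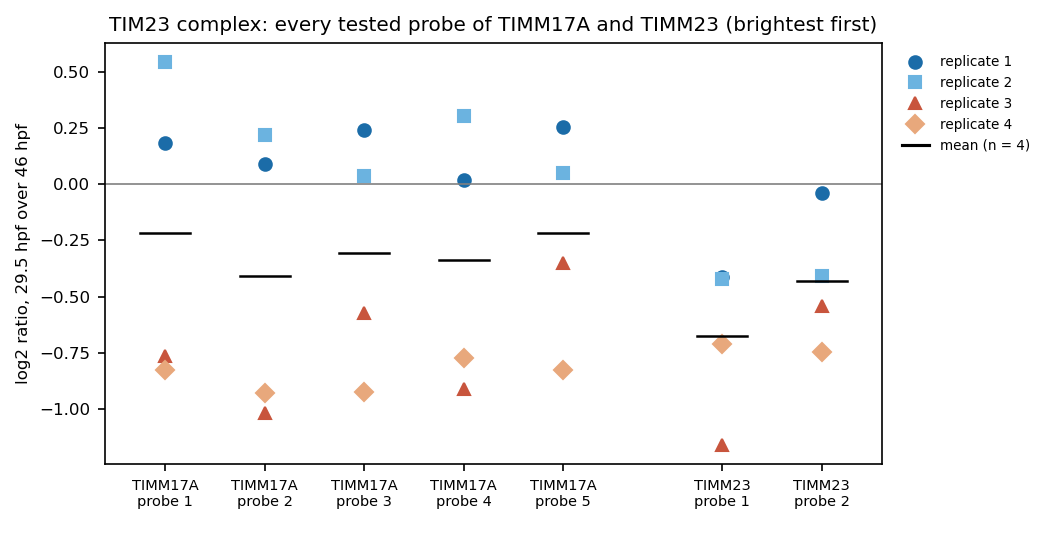
Log2 ratio of 29.5 hpf over 46 hpf (vertical axis) for each of the 5 tested TIMM17A probes and the 2 tested TIMM23 probes, with 1 symbol for each labelled replicate and a line at the mean. On all 5 TIMM17A probes labelled replicates 1 and 2 lie above 0 and replicates 3 and 4 below it, with probe means from -0.41 to -0.22. In the exchanged numbering number 2 lies above 0 only on TIMM17A probe 4, at 0.17. All values of both TIMM23 probes lie below 0.

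A division of replicates 1 and 2 from 3 and 4 by sign was as frequent among the members as among all genes. It was counted in the labelled numbering only. It was seen in 7 of the 55 tested members, or 12.7%, beside 12.7% of all genes. In SLC25A40, TIMM10, TIMM17A and TOMM22 replicates 1 and 2 were above 0 and the others below, beside 6.2% of all genes, and in SLC25A1, SLC25A5 and TOMM40 it was the reverse, beside 6.48%. With numbers 3 and 4 alone, a setting chosen after seeing the data, limma called 0 carriers and 0 import proteins, with 7 and 3 at an unadjusted p under 0.05, beside 0% of all genes called and 14.3% at an unadjusted p under 0.05. There the import proteins had a median of -0.16 and the carriers one of -0.0058.

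The TIM22 route and its chaperones, through which the carriers themselves are inserted, held 6 tested genes with a median of 0.08. TIMM8B, a small chaperone of the intermembrane space, had 0.23, 0.47, -0.06 and 0.95 and a mean of 0.40 ± 0.43 (SD, n = 4; limma, adjusted p = 0.328). TIMM13, a small chaperone of the same kind, had -0.31, 0.02, -0.22 and -0.70 and a mean of -0.30 ± 0.30 (SD, n = 4; limma, adjusted p = 0.317). Each had 1 replicate on the other side of 0. TIMM22, the insertion pore, had 0.14 ± 0.16 (SD, n = 4; limma, adjusted p = 0.496), and TIMM8A, TIMM9 and TIMM10 lay between -0.12 and 0.10.

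The TOM complex and related outer membrane or cytosolic proteins held 9 tested genes with a median of 0.05. TOMM20L, a relative of the receptor TOMM20, had replicates of -0.25, -0.07, -0.37 and -0.21 and a mean of -0.23 ± 0.12 (SD, n = 4; limma, adjusted p = 0.213, exchanged 0.363). It was dim, above background on 3 of 8 arrays at 29.5 hpf and on 8 of 8 at 46 hpf. It thus met the filter for testing only through the group where it was higher. TOMM5, a small subunit, had 0.24, 0.32, 0.32 and -0.10 with a mean of 0.19 ± 0.20 (SD, n = 4; limma, adjusted p = 0.400), and TOMM20 had 0.15 ± 0.27 (SD, n = 4; limma, adjusted p = 0.608). The dimmer TOMM20 probe, above background on 3 arrays at 29.5 hpf and on 5 at 46 hpf, gave -0.07. The channel TOMM40 had a mean of -0.02 from replicates of -0.64, -0.26, 0.22 and 0.59, so a mean near 0 stood over a wide spread. The receptor TOMM22, the small subunits TOMM6 and TOMM7, TOMM40L and the cytosolic co-chaperone TOMM34 had means between -0.11 and 0.09. Of the 20 import proteins 18 were above background on all 8 arrays in both groups, the exceptions being TOMM20L and TOMM40L.

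**Figure D5:**
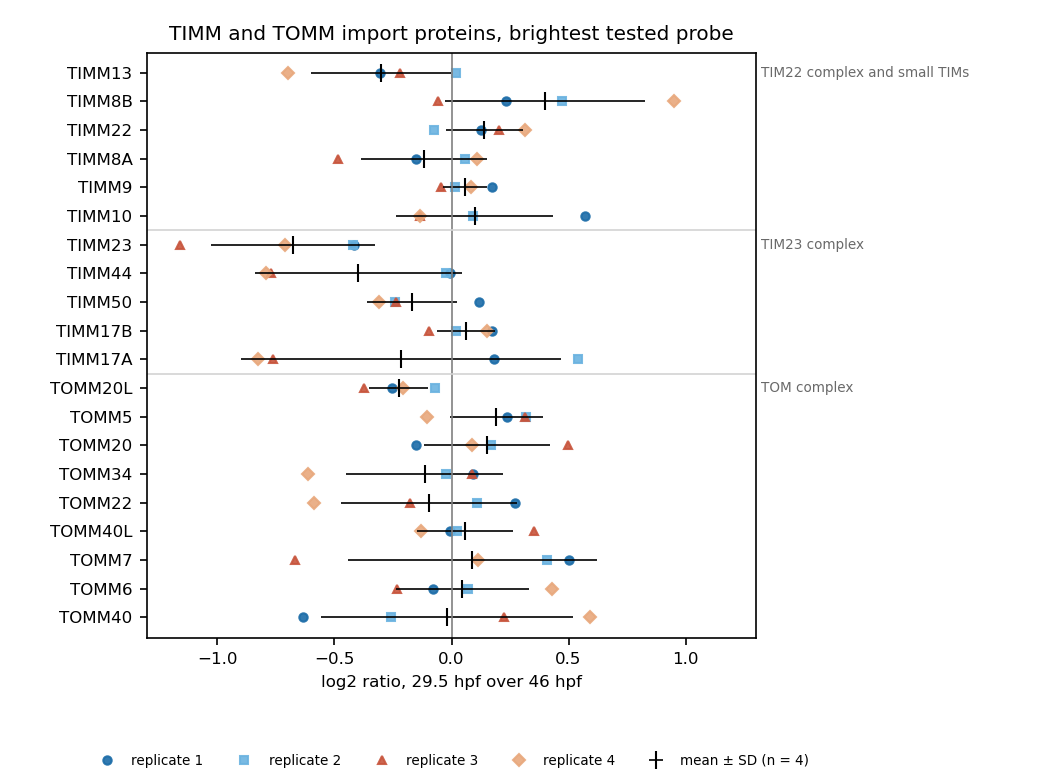
Log2 ratio of 29.5 hpf over 46 hpf (horizontal axis) of the 20 TIMM and TOMM import proteins by their brightest tested probe, grouped by complex, with 1 symbol for each of the 4 labelled replicates and the mean ± SD in black. TIMM23 lies left of 0 in all replicates (-1.16 to -0.41), TIMM44 and TIMM17A split between replicates 1 and 2 and replicates 3 and 4, and TOMM40 spreads from -0.64 to 0.59.

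All 4 replicates shared a sign in 3 carriers above 0 and 7 below, or 28.6%, and in 0 import proteins above 0 and 3 below, or 15%, beside 26.8% of all genes (13.1% above and 13.8% below). Probes of one gene often differed. Of 24 members with a further tested probe, the brightest and the next brightest had the same sign in 13, or 54.2%, beside 60.7% of 3065 such genes on the array.

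Members that carry the family name only in current RefSeq symbols (assembly ARS-UCD2.0) were not called either. SLC25A51, a mitochondrial NAD carrier, had -0.24 and -0.10 on its 2 probes, the receptor TOMM70 had -0.28, TIMM21 of the TIM23 complex 0.30 and TIMM29 of the TIM22 complex -0.21. Limma's adjusted p was between 0.380 and 0.653 for these, and TIMM10B, a small chaperone, was above background on 1 array in each group and was not tested.

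Other genes of the same pathways were described from lists. Of 26 tested genes of import motors, assembly, processing and protein quality control, limma called 0 in either numbering, beside 1.47% and 0.0158% of all genes. There were 2 positive and 5 negative genes at an unadjusted p under 0.05, beside 9.18% and 10.1% of all genes. The smallest p belonged to IMMP1L, a subunit of the inner membrane peptidase, at 0.38 ± 0.21 on its brightest probe (SD, n = 4; limma, adjusted p = 0.133) and -0.27 on another. HSPA9, the matrix Hsp70 of the import motor, had -1.13, -0.44, -0.11 and -0.42, with a mean of -0.52 ± 0.43 (SD, n = 4; limma, adjusted p = 0.216), and AFG3L2, a protease of the inner membrane, had -0.26 ± 0.18 (SD, n = 4; limma, adjusted p = 0.224).

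Of 24 tested genes of mitochondrial transport outside the SLC25 symbols, limma called 1 in the labelled numbering, beside 1.47% of all genes. This list, called other transporters below, also holds carnitine palmitoyltransferases, which are enzymes. In the exchanged numbering it called 0, beside 0.0158%. ABCB10, an ATP-binding cassette transporter of the inner membrane tied to haem synthesis, was lower at 29.5 hpf in all replicates, at -0.53, -0.63, -0.49 and -0.44, with a mean of -0.52 ± 0.08 (SD, n = 4; limma, adjusted p = 0.0409). In the exchanged numbering its adjusted p was 0.168 and it no longer passed. CPT2, the inner membrane carnitine palmitoyltransferase, had 0.81, 0.42, 0.38 and 0.51 and a mean of 0.53 ± 0.19 (SD, n = 4; limma, adjusted p = 0.0697, exchanged 0.109), and the ion exchanger LETM1 had -0.31 ± 0.20 (SD, n = 4; limma, adjusted p = 0.184).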

How the data were processed

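Per the file headers, the scanner files hold linear intensity values, the mean signal and median local background of each spot for Cy3 and Cy5, not normalized. The deposited value table holds the authors' log2 ratios; the sources used here do not give their normalization. Its columns correlated with the ratios computed here at r = 0.80 to 0.95, with slopes of 1.08 to 1.50, and it served as an alternative only. Per the labels' protocols, RNA went through T7 amplification before dye labelling.

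Background was corrected by normexp (offset 50) and ratios normalized by loess within arrays (limma 3.58.1, R 4.3.3). Ratios were turned to 29.5 hpf over 46 hpf and dye-swapped arrays of a labelled number averaged. Testing required a signal above the negative controls (153 spots; their mean plus 2 SD) on at least 4 of 8 arrays in 1 group, with at least 3 replicates present. The two-sided limma test (lmFit, eBayes) compared the mean with 0, and p-values were adjusted by Benjamini-Hochberg over 32989 probes, with a threshold of 0.05. The number of arrays limits precision. A gene was represented by its brightest tested probe, and levels of different probes were not compared.

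The platform annotation gave 21781 probes 1 symbol and 22013 none. Named members were those called, and up to 3 with the smallest p in each role, others being given by range or named where stated. Members and lists were chosen with earlier results of these data known. The labelled pairing comes from the series' design. Same-numbered arrays deviated from the overall mean with correlations of -0.28, -0.19, 0.29 and 0.50 for numbers 1 to 4. The fit was tested on simulated data.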

Additional observations from a re-analysis of the deposited data

Results flagged for a closer look

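In 3 of the 55 groups of 4 replicates examined, 1 replicate lay far from the other 3, and chance alone flags about 1 group in 20. For SLC25A38 the gap between replicate 3, at -0.65, and its nearest neighbour was 0.954 of the whole range. For TIMM50 replicate 1, at 0.12, lay apart by 0.832 of the range, and for TOMM34 replicate 4, at -0.61, by 0.838. The second TOMM34 probe had its replicate 4 at -0.64.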

How the results depend on the processing

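A carrier was called in 3 and an import protein in 3 of 19 alternative settings with a test. With the replicate block (the labelled number as a random block on all 8 arrays, correlation 0.134) limma called 820 probes higher and 821 lower, 3 carriers, 1 import protein, 1 other import gene and 2 other transporters. The members were SLC25A33 (adjusted p = 0.0265), SLC25A36 (0.0434), SLC25A14 (0.0484) and TIMM23 (0.0201). With the replicate block, exchanged numbers and a dye term the counts were 383 and 359 probes, 0 carriers, 1 import protein (TIMM23, adjusted p = 0.0357) and 2 other transporters. The title number as a block, with an estimated correlation of -0.074 so that arrays counted as more than separate samples, gave 1399 and 1497 probes, 3 carriers, 1 import protein, 3 other import genes and 2 other transporters; the strict filter on dim probes gave 458 and 405, 1 carrier (SLC25A33, adjusted p = 0.0467) and 2 other transporters. No background correction gave 345 and 271 probes and 2 other transporters, offset 0 gave 118 and 80, the authors' deposited values 38 and 13, exchanged numbers 4 and 0, and 0 other transporters in these last 3. Median centring, scaling between arrays, trend with robust eBayes, and leaving out any replicate (range 0 to 0) gave 0 probes and 0 other transporters; at an unadjusted p under 0.05 these settings had 3925 to 6517 probes. Without a filter there were 151 and 146. Averaging all probes of a gene, or choosing members by current symbol, gave 0 calls among members.

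Medians moved under median centring, to -0.24 for the carriers and -0.25 for the import proteins, for the carriers within title number 141 (0.014) and with 29.5 hpf in Cy5 only (0.023), and for the import proteins with numbers 3 and 4 alone (-0.16). In settings with a test, signs turned under median centring for SLC25A28 (-0.13), SLC25A11 (-0.10), SLC25A45 (-0.036), TIMM22 (-0.023), TOMM5 (-0.044) and TOMM20 (-0.15). They turned for SLC25A34 without background correction (-0.019), and in the authors' deposited values for SLC25A28 (-0.018), SLC25A21 (-0.15) and SLC25A34 (-0.0021). Leaving out 1 replicate in turn gave SLC25A1 -0.19 to 0.073, SLC25A34 -0.027 to 0.074, SLC25A21 -0.072 to 0.23, SLC25A11 -0.052 to 0.26 and SLC25A45 -0.0026 to 0.11. Signs turned without replicate 4 for SLC25A21, SLC25A11 and SLC25A45, without replicate 1 for SLC25A34, and without replicate 1 or 2 for SLC25A1. The cause was not tested. Signal near background limits the 9 members not above it on all arrays.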
